A study of Drosophila melanogaster with 2 samples.

Results

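This account covers 6 Drosophila melanogaster genes that encode bZIP transcription factors of stress and immediate-early responses (Atf3, kay, Jra, crc, Xbp1 and cnc), out of 13945 protein-coding genes on the main chromosome arms. They were picked by name and were chosen by earlier results on the same peak lists, so their peak counts and ranks are a description and carry no test. Binding was measured by chromatin immunoprecipitation and sequencing of tagged Pleiohomeotic (Pho), a zinc finger protein of the Polycomb group that binds DNA directly. All embryos were of the strain pho-GFP, a stable transgenic line with a C-terminal GFP on Pho. They were whole, of both sexes and aged 0 to 24 h, and the precipitation used an antibody to GFP. The 1 group holds 2 biological replicates, numbered 3 and 4, with no second genotype, treatment or stage. No library of untagged embryos was used here, so binding of Pho and precipitation of accessible DNA cannot be told apart. Whole embryos also mix all cell types and stages of the collection.

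A peak's summit counted for a gene when it lay in the gene or within 5 kb of either end. The list that the authors kept by reproducibility, called the optimal list here, held 4293 peaks, and 17 of its summits counted for the 6 genes. There were also relaxed lists, with background left in, of 30000 entries: 1 for each replicate and 1 for the reads of both together (pooled). Each entry carries a signal value from the authors' peak caller, and rank 1 is the strongest entry of a list. The scale differs between lists: the median over the 4293 strongest entries was 88.9 in replicate 3 and 58.5 in replicate 4, against 145 in the optimal list. Below, the median of a replicate's list always means this median over its 4293 strongest entries, not over all 30000. Read depth is unknown, since the lists hold no read counts.

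The bZIP proteins bind DNA as dimers, through a basic region that touches the bases and a leucine zipper that joins the partners. In the fly, kay encodes Fos and Jra encodes Jun, which together form AP-1, the factor downstream of the Jun kinase (JNK) in closure of the embryo's dorsal side and in wound repair. Atf3 is a further partner of Jun with roles in metabolic and immune balance. The genes crc (the counterpart of ATF4) and Xbp1 act in the responses to translational and endoplasmic reticulum stress, and the Ire1 nuclease splices Xbp1 RNA to give the active factor. The gene cnc encodes the counterpart of Nrf2, which drives the oxidative stress response, as well as shorter forms with roles in head development.

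Each of the 6 genes had at least 1 optimal summit in its window, but only Atf3 had a very strong one. Of all protein-coding genes 51.0% had a summit in such a window, so the presence of a summit is common. An optimal summit within 500 bp of the gene's own transcript start, called a promoter peak here, was present at Atf3, Jra, Xbp1 and cnc, which is 4 of 6 against 23.2% of all protein-coding genes. At kay and crc the optimal peaks lay elsewhere, inside an intron and at the start of the neighbouring gene. The strongest peaks ranked 25 at Atf3, 597 at kay, 767 in the window of Jra, 937 at Xbp1, 2092 in that of cnc and 3544 in that of crc. The strongest peak in the window of Jra stood at a start of its neighbour 14-3-3zeta, and the one in the window of cnc lay outside cnc, in CG4467.

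**Figure D1:**
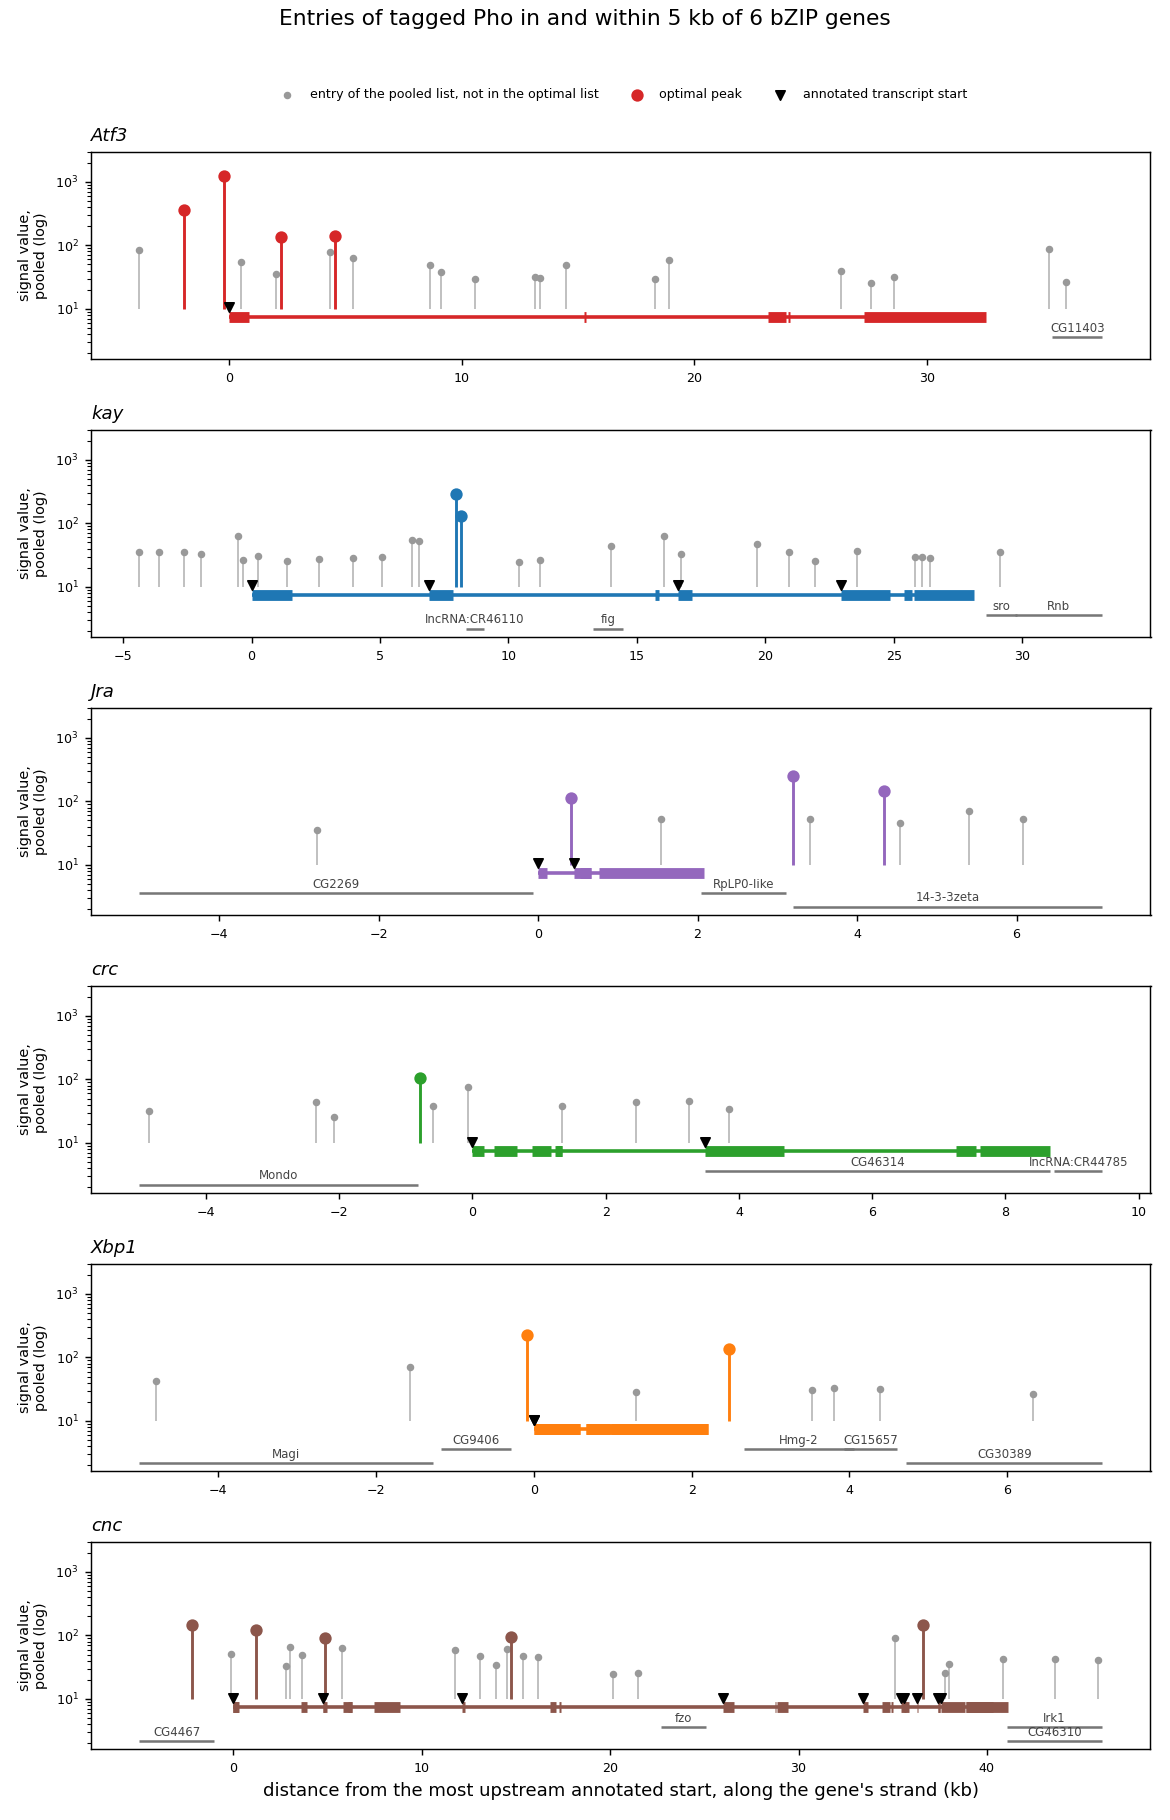
Signal value on pooled reads (log axis) of each entry in and within 5 kb of the 6 genes, by distance in kb from the most upstream annotated start along the gene's strand. Large coloured points are optimal peaks, small grey points are other entries of the pooled list, triangles are transcript starts, thick bars are exons of the gene and grey bars are neighbouring genes, cut at the window's edge. The point at 1214 just upstream of the only start of Atf3 is the highest of the 17 optimal peaks.

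Atf3 (FBgn0028550) lies on the minus strand of chromosome X, at 1242740 to 1275284 on dm6, and its 3 transcripts share 1 start. It had 4 optimal peaks. The strongest, at 1275271 to 1275741, had its summit 226 bp upstream of that start. Its signal value was 674 in replicate 3, where it ranked 28, and 537 in replicate 4, where it ranked 21. Relative to the list medians this was 7.59 times in replicate 3 and 9.19 times in replicate 4. Both replicates thus placed it among their 28 strongest entries. On pooled reads its signal reached 1214, at rank 25, and 17 of the promoter peaks of any gene were stronger.

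A second strong peak of Atf3 lay in intergenic DNA 1933 bp upstream of the start (1277141 to 1277316, only 176 bp wide). Its signal value was 208 in replicate 3 and 145 in replicate 4, with ranks 420 and 392, and 355 on pooled reads, at rank 389. The promoter peak was 3.41 times as strong as this one on pooled reads. Both other peaks lay in the long first intron, 2211 and 4541 bp downstream of the start. They were near the median of the optimal list, at 136 and 142 on pooled reads. In replicate 3 they had 87.8 and 79.4, and in replicate 4 they had 50.3 and 53.6. All 4 peaks therefore stood in the first few kilobases on either side of the start, and the remaining intron and exons held weaker entries only.

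The windows of 50 bases either side of both strong summits of Atf3 are shown because they are the strongest sites among the 6 genes. They are read from RefSeq's release 6 sequence on the plus strand, opposite to the gene, and lie outside annotated exons.
Atf3 promoter summit, chrX:1275460-1275560: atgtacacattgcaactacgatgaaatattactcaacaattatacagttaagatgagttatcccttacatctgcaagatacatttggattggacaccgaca
Atf3 upstream summit, chrX:1277167-1277267: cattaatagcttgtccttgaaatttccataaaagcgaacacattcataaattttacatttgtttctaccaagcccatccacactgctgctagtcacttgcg
None of the 11 motifs searched lies in either window, so no base is in capitals. The G and C content was 34.7% in the first and 37.6% in the second, against a median of 36.6% over all optimal summits.

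The gene kay (FBgn0001297) lies on the plus strand of 3R, at 29765995 to 29794113, with 5 transcripts from 4 separate starts. None of the 4 starts carried an optimal summit within 500 bp. Of the 250 protein-coding genes with 4 distinct starts, 50.8% had a promoter peak at 1 or more of them. The optimal peaks of kay were a pair of overlapping intronic peaks with summits 202 bp apart, 1058 and 1260 bp downstream of the start shared by kay-RA and kay-RG. For the first, at 29773732 to 29774167, the signal was 168 at rank 659 in replicate 3, and 124 at rank 538 in replicate 4. The second had 62.6 and 47.0, with ranks 3734 and 3054. The first was thus above the list median and the second below it in both replicates. On pooled reads they had 293 and 129, at ranks 597 and 2562. The start nearest to the second summit is that of lncRNA:CR46110, a noncoding RNA on the opposite strand within kay, 899 bp away.

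At the starts of kay the relaxed lists held weak entries. Within 500 bp of the kay-RA and kay-RG start, replicate 3 had an entry of 48.9 at rank 5390, and replicate 4 had none. At the kay-RD start, the most upstream, both replicates had an entry, of 18.3 and 13.3, at ranks 22422 and 28609. Just past the 500 bp limit, 541 bp upstream of that start, lay the strongest entry of the kay window outside the optimal list. It had 64.2 on pooled reads, at rank 7091, and a summit of both replicates within 100 bp. At the kay-RB start replicate 3 alone had one, of 21.1, and at that of kay-RF neither had. None of these entries reached the level of the intronic pair. The windows at the summits of that pair are shown because they hold matches to 1 motif each.
kay first summit, chr3R:29773900-29774000: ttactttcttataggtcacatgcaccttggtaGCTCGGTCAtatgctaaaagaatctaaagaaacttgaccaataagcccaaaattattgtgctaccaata
kay second summit, chr3R:29774102-29774202: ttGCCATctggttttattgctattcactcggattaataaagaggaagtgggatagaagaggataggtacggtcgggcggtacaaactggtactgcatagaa
Capitals mark, in the first, the reverse complement of TGACNNNGC, the form of site known for cnc with maf-S. In the second they mark GCCAT, the core of Pho's own recognition site, centred 46 bp from the summit. Of all optimal summits 3.26% had the former and 15.8% the latter in windows of 101 bases, so both words also occur at other peaks.

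The gene cnc (FBgn0262975), on the minus strand of 3R at 23185580 to 23226711, has 16 transcripts from 10 distinct starts and had 5 optimal peaks, the most of the 6 genes. Of all protein-coding genes 1.33% had as many or more in their window, a share that takes no account of gene length. The window of cnc spans 51132 bp and held 0.978 summits per 10 kb, against 0.531 over the windows of all protein-coding genes. All 5 peaks of cnc were modest, with signal values from 91.9 to 147 on pooled reads. Promoter peaks stood at 2 of the 10 starts. Of the 3 protein-coding genes with 10 starts, cnc included, all 3 had a promoter peak and 2 had as many as cnc. The first was 294 bp downstream of the cnc-RE start (23189907 to 23190342). There the signal value was 92.9 in replicate 3 and 53.6 in replicate 4, with ranks 1986 and 2501, near the median of each list. This start serves a short form, with a coding length of 1599 bp.

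The second promoter peak of cnc was 95 bp downstream of the start shared by cnc-RC, cnc-RJ, cnc-RK and cnc-RO, which give the longest coding sequences of the gene, 4149 to 4290 bp. It was found unequally: 65.9 in replicate 3 at rank 3472, and 19.8 in replicate 4 at rank 13883. At rank 4289 of 4293 it was also close to the end of the optimal list, at 91.9 on pooled reads. The lowest value of the list was 91.9 as well. Just outside the list, at rank 4330, an entry of 91.4 lay 320 bp upstream of the cnc-RG start, with 62.3 in replicate 3 and 29.0 in replicate 4 as the strongest entries within 500 bp.

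The 3 other peaks of cnc lay away from its starts. An intronic peak 1202 bp downstream of the most upstream start had 79.1 in replicate 3 and 47.8 in replicate 4. A further intronic peak, 2584 bp downstream of the cnc-RL start, had 59.3 in replicate 3, while the nearest summit of replicate 4 was 142 bp away. The peak upstream of the gene, 2179 bp from the most upstream start, lay in the 3' UTR of the neighbour CG4467. It had 65.0 in replicate 4, and the nearest summit of replicate 3 was 103 bp away. These last 2 were the only ones of the 17 without a summit of both replicates within 100 bp. When replicate 4 alone was used, with its 4293 strongest entries, 3 summits lay in the window of cnc in place of 5. The window at the cnc-RE start is shown for its motif.
cnc summit at the cnc-RE start, chr3R:23190075-23190175: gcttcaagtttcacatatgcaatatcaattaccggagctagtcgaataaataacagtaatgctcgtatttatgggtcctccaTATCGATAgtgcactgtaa
Capitals mark TATCGATA, the site of the promoter factor DREF, centred 35.5 bp from the summit. Of all optimal summits 3.35% had this word within 50 bp, and 5.22% of those within 500 bp of any start.

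The gene crc (FBgn0000370), on the plus strand of 2L at 21310866 to 21319527, had 1 optimal peak in its window, and that peak stood at the neighbouring gene. Its summit was 22 bp upstream of the start of Mondo, a gene for a sugar-responsive factor transcribed in the opposite direction, and 794 bp upstream of the first start of crc. The starts of Mondo and crc lie 816 bp apart. The signal value was 61.7 in replicate 3 and 39.7 in replicate 4, with ranks 3810 and 3996, and 104 on pooled reads at rank 3544. It was thus a weak peak in both replicates. At the first start of crc, used by 3 of its 4 transcripts, an entry outside the optimal list had its summit 65 bp away, with 76.4 on pooled reads at rank 5614. Both replicates had an entry there, of 52.0 at rank 4944 and 27.6 at rank 7449. At the start of crc-RB, which is also the start of CG46314, the strongest entries were weaker, 38.4 in replicate 3 and 20.9 in replicate 4. The bases of the window outside the exon of Mondo are shown for a match to GCCAT on the minus strand, in capitals.
Mondo and crc intergenic summit, chr2L:21310051-21310122: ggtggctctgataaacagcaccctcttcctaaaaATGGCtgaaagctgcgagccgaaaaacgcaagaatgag

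The gene Jra (FBgn0001291), on the plus strand of 2R at 10096480 to 10098556, has 2 starts 448 bp apart, and 1 peak between them counted for both. Its summit was 41 bp upstream of the start of Jra-RA and Jra-RC and 407 bp downstream of that of Jra-RB. The signal value was 61.6 in replicate 3 and 49.3 in replicate 4, with ranks 3823 and 2837, and 112 on pooled reads at rank 3205. This promoter peak was below the median of the list in both replicates. Its window held TGAGTCA, the reverse complement of the AP-1 site TGACTCA, and also the DREF word TATCGATA. It was the only one of the 17 with an AP-1 site, a word that 1.09% of all optimal summits had within 50 bp.

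The other 2 peaks in the window of Jra belonged by distance to 14-3-3zeta, a gene for a signalling adaptor. It is transcribed away from RpLP0-like, whose start lies 85 bp from the stronger of these summits. The stronger, 110 bp wide, had its summit 2 bp from a start of 14-3-3zeta. It had 153 in replicate 3 and 97.8 in replicate 4, with ranks 798 and 841, both above the peak of Jra itself. The weaker, 223 bp upstream of another start of 14-3-3zeta, had 82.8 and 58.6. In both replicates, then, the promoter peaks of the neighbour were stronger than that of Jra.

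The gene Xbp1 (FBgn0021872), on the plus strand of 2R at 21143545 to 21145750, has 2 transcripts whose starts are 4 bp apart. A narrow peak of 145 bp (21143410 to 21143554) had its summit 85 bp upstream of the first. The signal value was 156 in replicate 3 at rank 766 and 73.4 in replicate 4 at rank 1470, or 1.76 and 1.26 times the median of each list. It was above the median in both, with a lower rank in replicate 4. On pooled reads it had 229 at rank 937. The window around the summit had 22.8% G and C, at percentile 4.54 of all optimal summits. A second peak in the window stood 182 bp upstream of the neighbour Hmg-2, with 84.3 and 52.1 in replicates 3 and 4.

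**Figure D2:**
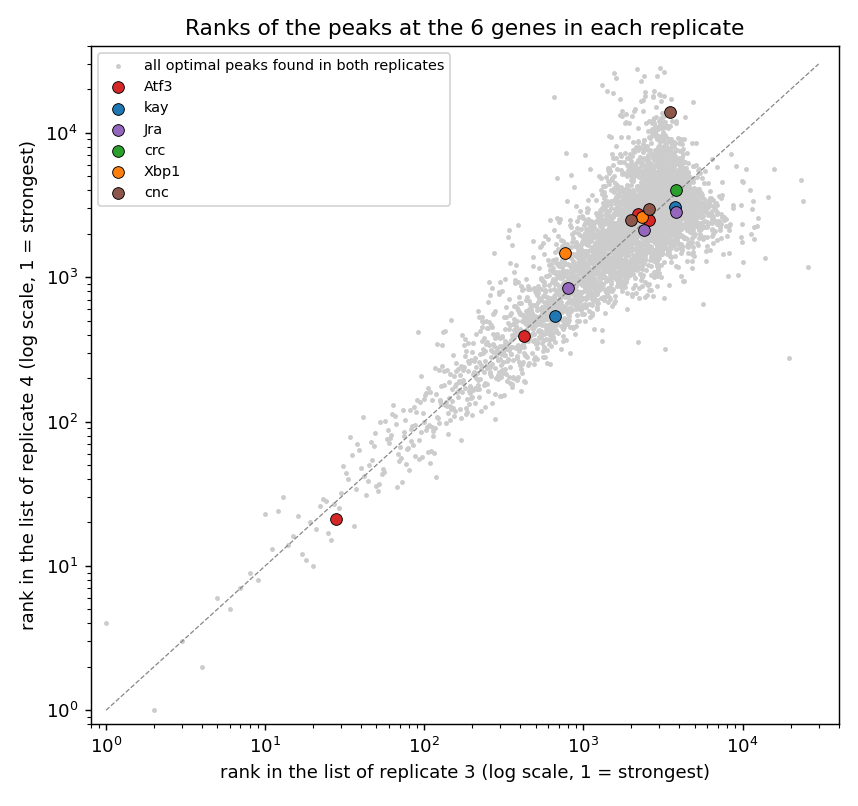
Rank in the list of replicate 4 against rank in that of replicate 3 (log axes, 1 is the strongest entry) for the 15 peaks at the 6 genes that both replicates had within 100 bp, in colour, over all optimal peaks found in both, in grey. The promoter peak of Atf3 sits at ranks 28 and 21, and, among the 15 coloured points, the cnc peak with ranks 3472 and 13883 lies farthest from the dashed line of equal ranks.

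Of the 17 summits 15 (88.2%) had a summit of both replicates within 100 bp, against 94.4% of all optimal summits. The pooled list was called on the reads of both replicates and the optimal peaks were kept for agreement between them, so such matches follow in part from how the lists were made. The median signal value of the 17 peaks was 142, close to the 145 of all optimal peaks. Among the 2146 strongest optimal peaks were 7 of the 17, and among the 429 strongest were 2, both at Atf3. The other 5 of these 7 were the first intronic peak of kay (rank 597), the stronger peak at 14-3-3zeta (767), the promoter peak of Xbp1 (937) and 2 in the window of cnc (2092 and 2116). The remaining 10, among them both intronic peaks of Atf3, lay below the median of the list.

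By position, 9 of the 17 summits (52.9%) lay within 500 bp of any annotated start, against 62.0% of all optimal summits. Of these 9, 5 were at starts of the 6 genes themselves and 4 at those of Mondo, 14-3-3zeta and Hmg-2. The rest were 6 in introns, 1 in intergenic DNA and 1 in a 3' UTR, and none was in a coding exon. The farthest summit that counted lay 2257 bp outside its gene, and the nearest that did not count lay 5246 bp outside, at kay. The 17 summits came to 0.973 per 10 kb of window, against 0.531 over the windows of all protein-coding genes and 0.321 over the 6 chromosome arms. When only summits whose nearest protein-coding start belonged to the gene were kept, 13 remained and crc had none.

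The 6 genes have 21 distinct starts, of which 7 (33.3%) carried an optimal summit within 500 bp, against 21.1% of the distinct starts of all protein-coding genes. These 7 were the start of Atf3, both starts of Jra and of Xbp1, and 2 of cnc. Of the 10246 protein-coding genes with 1 start, 18.2% had a peak there as Atf3 did. Both starts carried a peak in 19.8% of the 2566 genes with 2 starts, Jra and Xbp1 among them, while 32.6% of these genes had a peak at 1 or more and crc had none. Starts a few bases apart share a peak, as at Xbp1, so these are not separate observations.

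**Figure D3:**
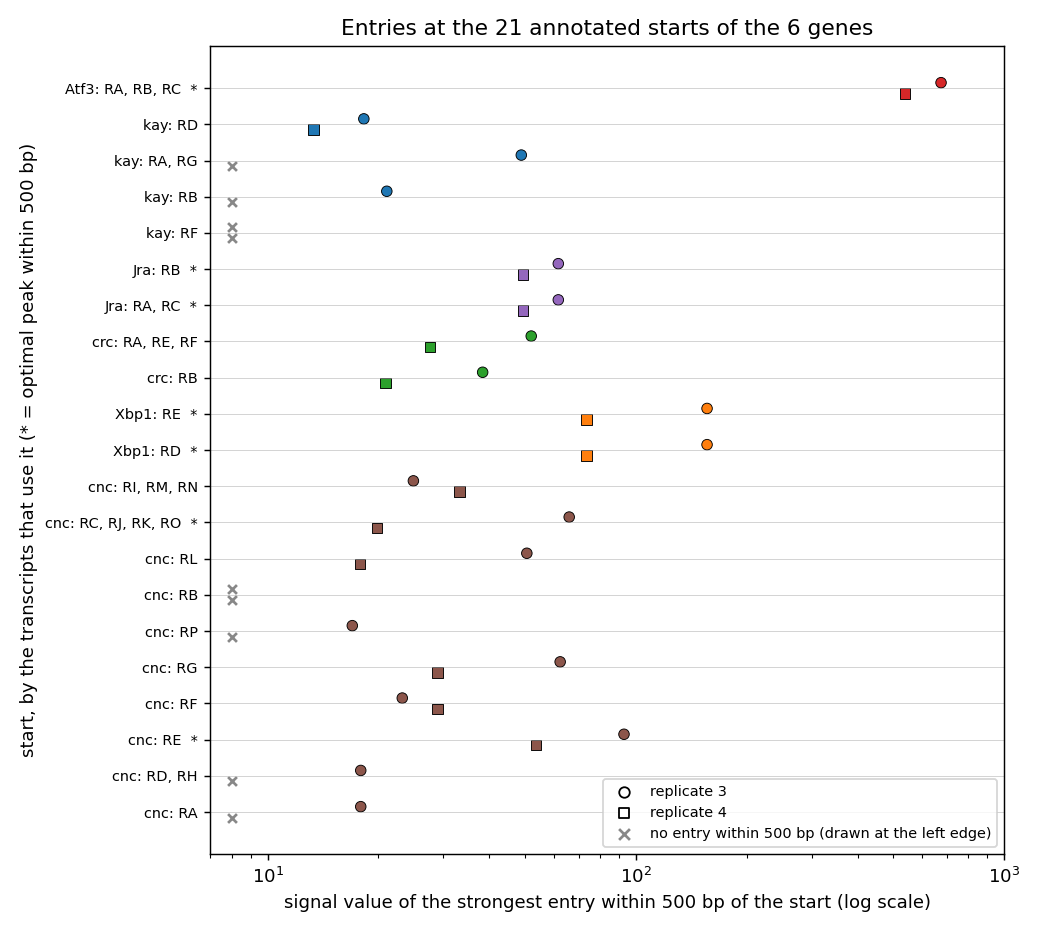
Signal value (log axis) of the strongest entry within 500 bp of each of the 21 distinct starts of the 6 genes, in replicate 3 (circles) and replicate 4 (squares), with crosses at the left edge where a replicate had no entry. Starts are named by their transcripts, and an asterisk marks an optimal peak within 500 bp. Atf3 stands apart at 674 and 537, and 14 starts had an entry in both replicates.

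Below the optimal list, most starts still had an entry. Replicate 3 had one within 500 bp of 19 of the 21 starts and replicate 4 of 14, and the same 14 starts had both. The relaxed lists hold background, so an entry is not by itself a bound site. The share of all annotated starts with such an entry is not given here, so these counts have nothing to stand beside. Only the starts of kay-RF and cnc-RB had none in either replicate or in the pooled list. The windows of the 6 genes held 102 entries of the pooled list, of which 85 were outside the optimal list. The 102 came to 5.84 per 10 kb of window, against 2.24 over the 6 chromosome arms, which include DNA far from genes. Of these 85, 25 had a summit of both replicates within 100 bp and 5 had one of neither. No like share over all such entries is given here.

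The 4293 strongest entries of each replicate gave the same genes. In replicate 3 alone 4 of the 6 genes had a promoter peak, against 23.2% of all protein-coding genes, and in replicate 4 alone 4 of 6, against 22.5%. In both cases these were Atf3, Jra, Xbp1 and cnc. The first start of crc, at ranks 4944 and 7449, fell outside that number of entries in either replicate.

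Ranked by their strongest promoter peak, Atf3 stood at place 23 among the 3235 protein-coding genes that had one. Next above it were Pal1 and Pdrg1, which share a peak of rank 23 with a signal value of 1242, and next below were CG9147 and Fbw5, with a peak of rank 26 at 1175. Xbp1, at rank 937, fell between Tsp42Eg and CG18476. The gene cnc, at rank 2116, fell between CG16721 and ZnT77C, and Jra, at rank 3205, between Imp and Ten-a. Signal values next to each other in this order differed by little, such as 229 at both Tsp42Eg and Xbp1, so the order among neighbours carries no weight.

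Sites known for the bZIP proteins themselves were found at few of these summits. In windows of 50 bp either side and on both strands, 1 of the 17 (5.88%) had the AP-1 site TGACTCA, against 1.09% of all optimal summits. TGACNNNGC was also present at 1 of 17 (5.88%), against 3.26% of all. None had the cyclic AMP response element TGACGTCA, none the Xbp1 and Atf6 type TGACGTGG, and none the ATF4 and C/EBP type TGATGCAAT, words that 0.140%, 0.116% and 0.140% of all optimal summits had. The Pho core GCCAT was present at 3 of 17, in windows of kay, crc and cnc, against 15.8% of all. The DREF site was present at 2 of 17 (11.8%), at Jra and cnc, against 3.35% of all. Both of these lay within 500 bp of a start, and 5.22% of all optimal summits so placed had the word. The word GAGAG of the GAGA factor was also present at 2, both in the window of cnc, against 11.2% of all. The TATA box word TATAAA was present at 1, beside 14-3-3zeta, against 16.5% of all, while GGTCACACT and CAGGTAG were at none, against 1.44% and 0.443%. With 17 summits such counts are too small to set apart from these shares, and a word is not by itself a bound site.

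Promoter peaks of tagged Pho were also counted at genes that act with these factors. Lists of such genes were set up from textbook knowledge, but with earlier results of these data known, so they are not independent of the peaks. Of their 56 distinct genes 25 had a promoter peak (44.6%), against 23.2% of all protein-coding genes. No test was made of the lists. Among 16 other bZIP genes 6 had one. The strongest were at REPTOR, a factor held back by TOR signalling (rank 127, signal value 579), and at Irbp18, a partner in C/EBP-type dimers (rank 183, 495). CrebB, the counterpart of CREB, had one at rank 1734 (165) and Atf-2 at rank 2673 (126), whereas Atf6 and CG16813 had none.

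In the JNK pathway, which acts on Jra and kay, 8 of 15 genes had a promoter peak. That of Mkk4, an activating kinase of JNK, was the strongest, at rank 44 with a signal value of 882. It was followed by Traf6, an adaptor (rank 982, 223), wnd, a kinase at the top of the cascade (rank 1448, 182), and raw, a negative regulator (rank 3355, 109). The JNK gene bsk and egr, the gene for its TNF-type ligand, had none in the optimal list.

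Of the 15 genes of the unfolded protein and integrated stress responses, upstream and downstream of Xbp1 and crc, 6 had a promoter peak. The strongest were at Herp, which acts in degradation at the endoplasmic reticulum (rank 209, 465), and Ire1, the sensor that splices Xbp1 RNA (rank 440, 336). Thor, the translation inhibitor 4E-BP, had one at rank 841 (244) and Pdi, a protein-folding enzyme, at rank 3494 (106), while Atf6 and Calr had none. Of the 12 genes around Keap1 and cnc 5 had one. These included Keap1, the inhibitor of the Nrf2 counterpart (rank 1822, 161), Gclm, of glutathione synthesis (rank 1887, 157), Sod2, the mitochondrial superoxide dismutase (rank 2394, 135), and GstD1 (rank 3457, 106), while Cat and Gclc had none. The signal values in this list were all within 161, below those that led the other lists.

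**Figure D4:**
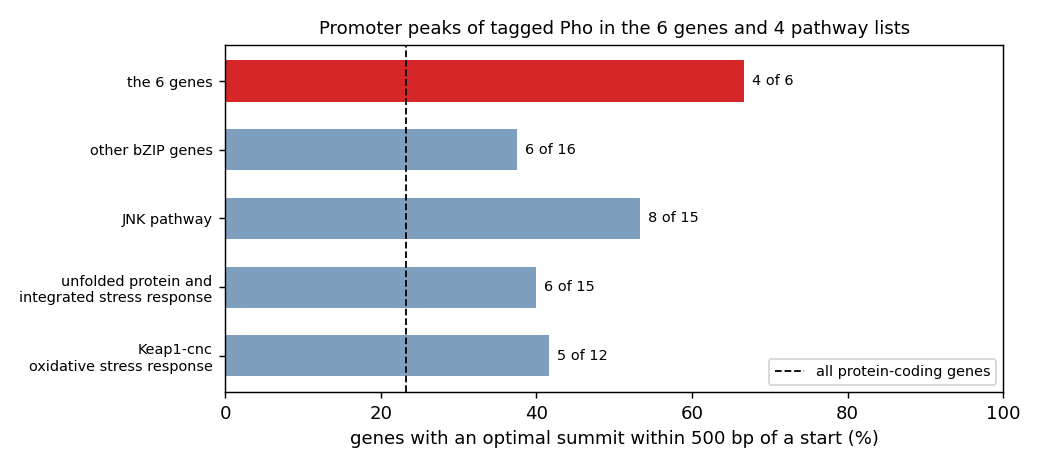
Share of genes with an optimal summit within 500 bp of a start (bars from 0, in percent) for the 6 genes and for 4 lists of related genes, with the count of genes beside each bar. The dashed line is the 23.2% of all protein-coding genes, and on the optimal list all 5 bars extend past it. Single replicates are not drawn. In replicate 4 alone the lists, from the other bZIP genes down, had 4 of 16, 6 of 15, 5 of 15 and 4 of 12. In replicate 3 alone they had 8, 7, 6 and 6. The share of all protein-coding genes was 22.5% in replicate 4 and 23.2% in replicate 3.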

How the data were processed

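Per the texts deposited with the lists, the authors called entries in each replicate and in the pooled reads against 1 shared control file, and thresholded the optimal list on its irreproducible discovery rate. Which aligner and caller were run, and with which settings, is not given in the sources used here. The deposited signal value of each entry was used for ranking. The deposited −log10 q-value hardly separates peaks: 3911 of the 4293 optimal ones, and 15 of the 17 at these genes, share its maximum of 3.89. The dm3 lists were not used here, since the gene models are for dm6. Gene models came from Ensembl release 115, without transposable elements. They gave 23581 distinct starts on the 6 main arms, and sequence came from RefSeq's release 6. Coordinates are 1-based. Of the list genes, all matched the annotation, Jafrac1 as Prx2 and Prx2540-1 as Prx6b through RefSeq's synonyms. A summit within 500 bp of any start was classed as promoter, and otherwise exon classes took precedence over introns. Counting of summits was checked on planted positions. The genes, lists and motifs were chosen with earlier results of these data known, and no statistical test was run. Named list genes were up to 4 with the strongest promoter peak and up to 2 without one in alphabetical order. Work was done in Python 3.11.15 with pandas 2.3.3, numpy 2.4.6 and matplotlib 3.10.9.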

Additional observations from a re-analysis of the deposited data

How the results depend on the processing

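The 17 summits became 9 with the gene body alone and 7 with the 2146 strongest optimal peaks, and the 9 at any start became 3 and 4. The 7 starts with a peak became 4 within 200 bp, 11 within 1000 bp and 4 with the 2146 strongest peaks, which also took the pathway genes with a promoter peak from 25 to 11. Summits with any of the 11 motifs went from 8 to 3 within 25 bp. The other 35 recomputed totals over the 6 genes or over all lists moved less in proportion, though some still shifted. Within 10 kb the 17 summits became 25 and the 9 at any start 13. The 8 summits with a motif became 12 within 100 bp. From either replicate alone, the optimal-list counts of 17 summits and 7 starts were 17 to 19 and 6 to 8. The 25 pathway genes were 26 in replicate 3 and 19 in replicate 4. Of the recomputed values for single genes or lists, 22 moved by more than these 35 totals and 57 did not. With the 2146 strongest peaks the JNK list fell from 8 genes to 3, the other bZIP genes and the unfolded protein list from 6 to 3 each, and the Keap1 list from 5 to 2. The share of all protein-coding genes with a promoter peak among those 2146 peaks is not given here. The 23.2% of the full optimal list is no like share for these counts. The pair of kay peaks counted as 1 when merged. A ranking by −log10 p was not run, because that column holds no values. Without read counts, the precision of a single signal value is unknown, and 2 replicates give no usable spread.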

Other observations

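Among the pathway genes, puc, the phosphatase gene that is a known target and brake of JNK signalling, had 6 optimal summits in its window and no promoter peak, the nearest being 3846 bp from a start. The kinase gene msn, upstream in the same pathway, had 7 in its window. Unlike puc, it had a promoter peak at both of its 2 starts, the strongest at rank 3451. Of all protein-coding genes 1.33% had 5 or more summits in their window, a share that takes no account of gene length. The share with 6 or 7 is not given here. Both puc and msn were named after their values were seen.

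The word GCCCAT, also noticed after the sequences were read, lay within 50 bp of 3 of the 4 summits of Atf3, at 20.5, 23.5 and 40.5 bp to the same side, and of the promoter summit of Jra. It was absent from the window of the promoter summit of Atf3. Over all optimal summits 2.77% had it, and equally wide windows centred 250 bp to either side had it at 3.33% and 3.15%.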
